A study of Homo sapiens with 17 samples.

Results

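The 9 genes described here, of 62754 genes in the deposited tables, belong to the tumor necrosis factor (TNF) superfamily. They were chosen by name, with earlier results of these data known, and comprise 6 ligands (TNF, TNFSF15, TNFSF10, TNFSF4, TNFSF9 and TNFSF13B) and 3 receptors (TNFRSF11B, TNFRSF1B and TNFRSF9). Strand-specific sequencing of poly(A) RNA gave their expression in 17 libraries of IMR90 ER:RAS cells, a line of human lung fibroblasts made by retroviral infection with a vector for a fusion of an estrogen receptor domain and the RAS mutant G12V. 4-Hydroxytamoxifen (4OHT) activates the fusion and drives oncogene-induced senescence. Every library therefore carried the ER:RAS vector and an siRNA transfection, and no library came from parental cells. The DMSO siNT group (n = 5) received the solvent and a non-targeting siRNA, the 4OHT siNT group (n = 6) received 4OHT and a non-targeting siRNA, and the 4OHT siSMARCA4 group (n = 6) received 4OHT and an siRNA against SMARCA4, an ATPase of the SWI/SNF chromatin remodeling complex. The siRNA was given 1 day before 4OHT or DMSO and RNA was taken 7 days after it. DMSO with siSMARCA4 was not analysed here, so the effect of SMARCA4 depletion was compared in 4OHT only.

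Ligands of this superfamily are trimeric proteins that sit on the cell surface or are shed from it, and their receptors pass the signal through TRAF adaptors to NF-κB and MAP kinases, or through death domains to caspases. Decoy receptors bind a ligand without passing on a signal. TNF itself is a macrophage and T cell cytokine, several of the other ligands costimulate T and natural killer (NK) cells, and NF-κB is a main driver of the senescence-associated secretory phenotype, the set of cytokines that senescent cells release.

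The RefSeq promoter table (build GRCh38.p14) matched 8 of the 9 members, and the 250 bases before the start site are printed for 4 of them: TNFSF15, which had the largest rise with 4OHT, TNF, which was barely detected, TNFSF9, which rose in both comparisons, and TNFSF4, which fell in both. Each runs 5′ to 3′ on the strand of the gene, and capitals mark matches to TGANTCA, the AP-1 motif, on either strand, or to TATAAA, the TATA box, on the gene strand. The TNFSF15 stretch lies at chr9:114792531-114792780 on the minus strand, TNF at chr6:31575315-31575564 on the plus strand, TNFSF9 at chr19:6530776-6531025 on the plus strand and TNFSF4 at chr1:173205533-173205782 on the minus strand. Starts are those of RefSeq, and for TNFSF15 and TNFSF4 GENCODE 44 places the gene's outermost start further upstream, at chr9:114806039 and chr1:173207331. Their printed stretches thus lie inside the GENCODE genes. The same holds for the windows of TNFSF13B and TNFRSF9, which are not printed but are searched below.
TNFSF15: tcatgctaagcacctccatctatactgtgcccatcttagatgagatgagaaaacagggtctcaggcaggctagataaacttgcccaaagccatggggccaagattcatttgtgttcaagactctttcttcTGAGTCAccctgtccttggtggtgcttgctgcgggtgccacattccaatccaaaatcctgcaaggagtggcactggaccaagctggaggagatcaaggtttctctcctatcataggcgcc
TNF: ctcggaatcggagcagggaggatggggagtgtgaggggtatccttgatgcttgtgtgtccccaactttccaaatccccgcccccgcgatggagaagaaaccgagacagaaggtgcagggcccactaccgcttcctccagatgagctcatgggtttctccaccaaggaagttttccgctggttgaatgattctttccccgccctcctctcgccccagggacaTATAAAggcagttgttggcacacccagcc
TNFSF9: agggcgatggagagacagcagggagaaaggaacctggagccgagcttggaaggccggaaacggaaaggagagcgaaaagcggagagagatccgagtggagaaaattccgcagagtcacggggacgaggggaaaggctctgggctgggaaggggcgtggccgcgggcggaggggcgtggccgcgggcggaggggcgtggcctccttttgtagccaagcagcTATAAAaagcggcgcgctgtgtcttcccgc
TNFSF4: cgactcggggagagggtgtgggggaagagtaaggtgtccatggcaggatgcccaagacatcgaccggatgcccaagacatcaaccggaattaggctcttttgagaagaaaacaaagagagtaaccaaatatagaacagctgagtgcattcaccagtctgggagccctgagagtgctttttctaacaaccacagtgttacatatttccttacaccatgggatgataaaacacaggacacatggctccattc

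In TNFSF15 an AP-1 match began 120 bases before the start. A TATA box began 29 bases before the start of TNF, 30 before that of TNFSF9 and 31 before that of TNFSF10. TNFRSF9 held an AP-1 match 44 bases before its start and matches to the NF-κB consensus, searched on both strands, from 74 bases before it. The 300-base windows of TNFSF4, TNFSF13B and TNFRSF1B held none of these letters, which says nothing of whether the factors bind there. Among 35116 promoters of the same length, 7.7% held the AP-1 motif, 7.3% the TATA box and 5.9% the NF-κB consensus. CpG dinucleotides occurred at 0.17 of the rate that base composition gives in the TNFSF15 window, 0.35 in TNFSF4, 0.44 in TNF and 0.96 in TNFSF9, beside a median of 0.58 over all promoters. Each match is a description of letters and not of a bound site.

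The depth, as the total of deposited counts over genes and repeat loci, ranged from 39109479 to 68978119 per library. SMARCA4 was the check of the knockdown, in CPM (counts per 1e+06 of the library total after TMM scaling between libraries). It lay between 252 and 285 CPM in 4OHT siNT and between 68.4 and 126 CPM in 4OHT siSMARCA4, without overlap (edgeR log2 fold change −1.61 ± 0.13 SE, adjusted p = 5.14e-07). All 10 fibroblast markers listed were detected in every group, and 8 of the 10 fell with 4OHT and 8 of the 10 with siSMARCA4 in edgeR's quasi-likelihood test, beside 27.4% and 13.8% of all tested genes, while VIM and PDGFRA passed neither test. Their summed level was 23420 to 28046 CPM in DMSO siNT, 13713 to 17865 in 4OHT siNT and 7720 to 11058 in 4OHT siSMARCA4. Of 15 leukocyte markers, 14 had a group mean under 1 CPM in each group, and without CD68, which fibroblasts also express, their sum did not pass 1.39 CPM in any library. Of the 3 that could be tested CSF1R was called higher with 4OHT, from 0.383 to 0.666 CPM without overlap (edgeR log2 fold change 0.80, adjusted p = 0.00972). Of 9 endothelial and epithelial markers 6 could be tested, and 3 rose and 2 fell with 4OHT while 4 fell with siSMARCA4. Their sum was 72.9 to 93.6 CPM in DMSO siNT, 70.8 to 85.7 in 4OHT siNT and 39.7 to 61.8 in 4OHT siSMARCA4, most of it from the keratin gene KRT18, and the endothelial markers moved with the groups. PECAM1 went from a mean of 0.0144 CPM in DMSO siNT to 0.935 in 4OHT siNT (edgeR log2 fold change 5.801, adjusted p = 3.37e-08) and 0.341 in 4OHT siSMARCA4 (−1.43, edgeR adjusted p = 0.00460), and VWF from 1.11 to 3.76 CPM with 4OHT (1.76, edgeR adjusted p = 1.24e-05). At its level in DMSO siNT, PECAM1 passed the filter on low counts through 4OHT libraries, where it was high, so its rise rests on them. The part of these moving markers in the results below was not tested. The labels do not say that libraries came from separate cultures, so p-values measure the spread between these libraries, and in bulk RNA fewer expressing cells and less RNA per cell cannot be told apart.

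Each library also carries a number (2 or 4) beside the name of its siRNA, a replicate number, and a tag, V or VM, that no source explains. Number 4 was carried by 2 DMSO siNT libraries and by 3 libraries of each 4OHT group. All 6 4OHT siNT libraries had the tag VM, as did 3 of 6 4OHT siSMARCA4 and 3 of 5 DMSO siNT libraries. Calls were made at an adjusted p under 0.05 in edgeR's quasi-likelihood test over 19473 genes that passed a filter on low counts. Of the 9 members, 7 passed that filter, and TNF and TNFRSF9 were too low to be tested. The 4OHT siNT libraries serve in both main comparisons, so their values for a member are not independent of each other.

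Per length of exon, the members spanned a wide range of levels, which the plot of levels per length shows. In DMSO siNT the order, in CPM per kb of exon, was TNFRSF11B (54.7 ± 4.7 SD, n = 5), TNFSF4 (18.7 ± 4.7), TNFRSF1B (5.53 ± 1.47), TNFSF9 (0.441 ± 0.080), TNFSF13B (0.365 ± 0.088), TNFSF10 (0.056 ± 0.040), TNFSF15 (0.052 ± 0.067), TNFRSF9 (0.010 ± 0.009) and TNF (0). The first 3 stood clear of each other, while libraries of TNFSF9 and TNFSF13B overlapped, as did those of neighbors among the last 4. In 4OHT siNT, TNFSF15 joined the top at 55.2 ± 11.1 CPM per kb (n = 6), overlapping TNFRSF11B at 54.4 ± 11.4. TNFRSF1B followed at 4.14 ± 1.62 and overlapped TNFSF4 at 1.88 ± 0.86, which in turn overlapped TNFSF9 at 1.15 ± 0.11. With siSMARCA4 the levels of TNFSF9 (2.88 ± 0.95) and TNFSF4 (0.575 ± 0.128) had changed places, and TNFSF15 (57.5 ± 27.4) and TNFRSF11B (39.04 ± 8.8) were the highest of the 9 and overlapped each other.

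**Figure D1:**
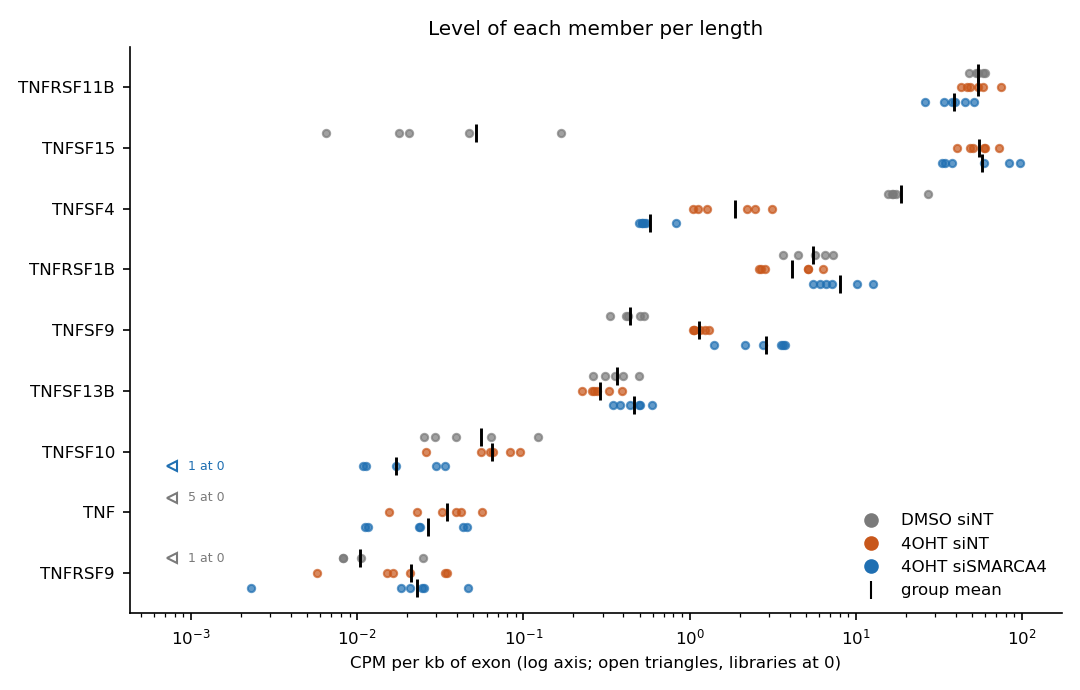
Level of each member in CPM per kb of exon on a log axis, 1 point per library and a bar at the group mean, with open triangles for libraries at 0. TNFSF15 moved from a mean of 0.052 in DMSO siNT to 55.2 in 4OHT siNT and TNFSF4 from 18.7 to 1.88. The 3 group means of TNFRSF11B lay between 39.04 and 54.7.

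The first comparison, 4OHT siNT against DMSO siNT, asks how these genes differed between senescent and control cells. TNFSF15 rose 1049-fold, TNFSF9 rose 2.60-fold and TNFSF4 fell 9.96-fold. TNFSF10, TNFSF13B, TNFRSF11B and TNFRSF1B did not pass the test. Among the 7 members tested, 2 were called higher and 1 lower, beside 27.0% of all tested genes higher and 27.4% lower, so that the share of members called higher was near that of all genes. Groups did not overlap for TNFSF15, TNFSF9 and TNFSF4, 3 of the 7, beside 39.6% of all tested genes. The median log2 fold change over the 7 was −0.01, and it was 0.00 over all genes. With libraries scaled by their totals alone, 4222 genes were called higher and 6465 lower in place of 5256 and 5345 and the median of all genes shifted to −0.11, while the calls and directions of the 7 members did not change.

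TNFSF15 encodes a ligand of the death receptor TNFRSF25 that costimulates T and innate lymphoid cells and restrains endothelial growth. Its gene lies at chr9:114784652-114806039 on the minus strand (GRCh38, GENCODE 44). The 5 DMSO siNT libraries held 1.31, 0.159, 0.139, 0.368 and 0.0503 CPM, from 75, 8, 8, 19 and 3 counts. In 4OHT siNT the lowest, median and highest libraries held 315, 427 and 565 CPM. The groups did not overlap, and the fitted log2 fold change was 10.03 (SE 0.58, edgeR adjusted p = 5.00e-11). Controls with 3, 8 and 8 counts lay under the filter's minimum of 10. TNFSF15 thus passed the filter through the 4OHT libraries, where it was high, and its rise rests on them. The library 2-1V, with 1.31 CPM, stood apart from the other 4 controls, and without it the log2 fold change was 11.22.

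TNFSF9 encodes the ligand of TNFRSF9 (CD137), a costimulatory receptor of T and NK cells, and lies at chr19:6531026-6535924 on the plus strand. Its 5 DMSO siNT libraries held 0.541, 0.676, 0.694, 0.871 and 0.822 CPM, and the 4OHT siNT libraries 1.73, 1.81 and 2.15 CPM at their lowest, median and highest. Every 4OHT siNT library was above every control (edgeR log2 fold change 1.38 ± 0.23 SE, adjusted p = 3.97e-05).

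TNFSF4 encodes the ligand of the T cell costimulator TNFRSF4 (OX40) and lies at chr1:173183731-173207331 on the minus strand. The controls held 66.4, 62.1, 107, 65.0 and 69.5 CPM, and the 4OHT siNT libraries 4.18, 6.91 and 12.5 CPM at their lowest, median and highest. All 6 senescent libraries lay below all 5 controls (edgeR log2 fold change −3.32 ± 0.26 SE, adjusted p = 3.32e-09). Library 2-2VM, at 107 CPM, was the high control, and the log2 fold change without it was −3.17. Within 4OHT siNT the 3 libraries of number 4 (4.18, 4.47 and 5.07 CPM) lay below the 3 of number 2 (8.74, 9.82 and 12.5 CPM).

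TNF, at chr6:31575565-31578336 on the plus strand, had 0 counts in each of the 5 DMSO siNT libraries and 1 to 5 counts in each 4OHT siNT library, 18 in all. Its share of the reads in 4OHT siNT was 5.13-fold that of a floor of 3 counts over the control group, with no allowance for the counting error of the 18. The 18 counts correspond to 0.0581 CPM over the group, by library totals without TMM scaling. TNF was thus detected in all 6 senescent libraries at a trace level. With the filter on low counts left off, edgeR gave an adjusted p of 0.000473 for this comparison. TNF entered that fit only through the 4OHT libraries, where it was present, so this value rests on them and is no test of its rise.

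TNFRSF9 encodes the receptor for TNFSF9 and lies at chr1:7915871-7943165 on the minus strand. It had 3, 8, 3, 0 and 4 counts in the controls and 2 to 12 counts, with a median of 6, in 4OHT siNT. Summed over each group, and by library totals without TMM scaling, these were 0.0679 and 0.129 CPM. Their ratio was 1.90, with an exact 95% interval of 1.06 to 3.52 that covers counting error only. With no filter on low counts the edgeR adjusted p was 0.275, and the libraries of both groups overlapped.

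The other members had values on both sides. TNFSF10 encodes TRAIL, a ligand that triggers apoptosis through TNFRSF10A and TNFRSF10B. It lies at chr3:172505508-172523475 on the minus strand and held 0.192 ± 0.137 CPM (SD, n = 5) in DMSO siNT and 0.224 ± 0.083 CPM (n = 6) in 4OHT siNT (edgeR log2 fold change 0.20 ± 0.47 SE, adjusted p = 0.748). The log2 fold change of TNFSF10 was −0.43 in number 2 libraries alone and 1.07 in number 4 libraries alone, and neither passed. TNFSF13B, the B cell survival factor BAFF, lies at chr13:108251240-108308484 on the plus strand and held 1.12 ± 0.27 and 0.890 ± 0.182 CPM (edgeR log2 fold change −0.33 ± 0.19 SE, adjusted p = 0.163). In the number 4 libraries alone TNFSF13B was called lower (−0.88, edgeR adjusted p = 0.0172), against only 2 controls at 1.22 and 1.51 CPM. In the number 2 libraries its log2 fold change was 0.06.

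TNFRSF11B encodes osteoprotegerin, a secreted decoy that binds TNFSF11 and TNFSF10. It held 137 ± 12 CPM in DMSO siNT and 137 ± 29 CPM in 4OHT siNT, and its log2 fold change was −0.01 with a standard error of 0.15. TNFRSF1B, the TNF receptor found mainly on immune and endothelial cells, lies at chr1:12166991-12209228 on the plus strand, where its exons also hold the microRNA gene MIR7846, and held 20.9 ± 5.6 and 15.6 ± 6.1 CPM (edgeR log2 fold change −0.41 ± 0.27 SE, adjusted p = 0.200). Its 4OHT siNT libraries fell into separate ranges by siRNA number, 9.94 to 10.7 CPM for number 2 and 19.4 to 24.04 CPM for number 4. In number 2 libraries alone TNFRSF1B was called lower with 4OHT (−1.13, edgeR adjusted p = 0.00161), whereas in number 4 libraries alone the log2 fold change was 0.08. Of the number 2 controls, libraries 2-1V and 2-2V held 27.4 and 24.7 CPM and library 2-2VM held 13.7 CPM. All 4OHT siNT libraries had the tag VM, so number and tag are mixed in this split. With VM libraries only, the log2 fold change of TNFRSF1B was −0.18 (edgeR adjusted p = 0.671). Whether the effect of 4OHT differed between the numbers, and the part of the tag, was not tested.

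**Figure D2:**
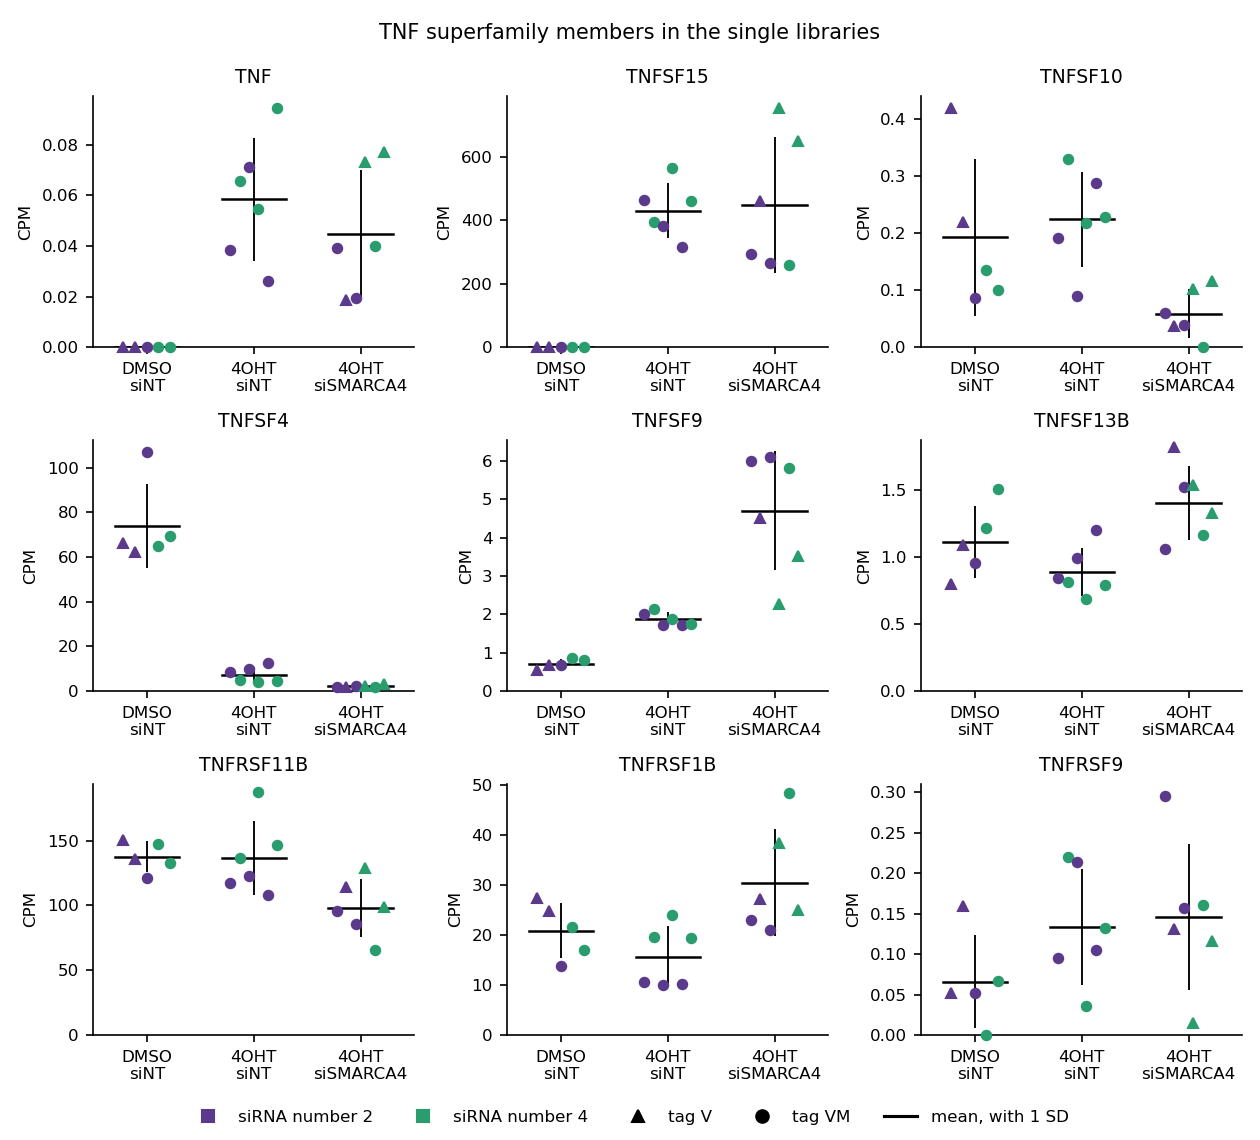
CPM of each member in each of the 17 libraries by group, colored by siRNA number and shaped by tag, with a line at the mean and a bar of 1 SD. TNFSF15 sits at 258 to 754 CPM in every 4OHT library and at 1.31 CPM or less in DMSO siNT, and the 4OHT siNT points of TNFSF4, TNFRSF1B, TNFRSF11B and TNFSF13B separate by siRNA number.

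The second comparison, 4OHT siSMARCA4 against 4OHT siNT, asks what SMARCA4 depletion did in senescent cells. TNFSF9 rose 2.51-fold, TNFRSF1B 1.94-fold and TNFSF13B 1.59-fold, while TNFSF10 fell 3.54-fold, TNFSF4 3.26-fold and TNFRSF11B 1.39-fold. Only TNFSF15 of the 7 members tested did not pass the test. The 3 members called higher and the 3 called lower stood beside 10.4% of all tested genes called higher and 13.8% called lower, and since the members were chosen with results of these data in view their share is no test. The median log2 fold change was 0.06 over the 7 members and −0.02 over all genes. Groups did not overlap for TNFSF4 and TNFSF9 of the 7, beside 12.0% of all tested genes.

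TNFSF9 had the largest rise of the 7. The 4OHT siSMARCA4 libraries held 2.28, 5.17 and 6.10 CPM at their lowest, median and highest, against 1.73 to 2.15 CPM in 4OHT siNT, so that the lowest depleted library lay just above the highest control (edgeR log2 fold change 1.33 ± 0.20 SE, adjusted p = 0.000179). Libraries tagged VM held 5.81, 5.99 and 6.10 CPM, and those tagged V held 2.28, 3.52 and 4.52 CPM. SMARCA4 itself was 68.4, 68.9 and 78.2 CPM in those VM libraries and 82.6, 103 and 126 CPM in the V libraries. The part of the depth of knockdown and of the tag in this spread was not tested. With VM libraries only, where SMARCA4 depletion was compared among libraries of a single tag, the log2 fold change of TNFSF9 was 1.69 (edgeR adjusted p = 1.61e-06).

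TNFRSF1B held 21.0, 26.1 and 48.3 CPM at its lowest, median and highest in 4OHT siSMARCA4, against 9.94, 15.1 and 24.04 CPM in 4OHT siNT (edgeR log2 fold change 0.96 ± 0.26 SE, adjusted p = 0.0110). The ranges overlapped across numbers and were apart within each number: 21.0 to 27.2 against 9.94 to 10.7 CPM for number 2, and 24.9 to 48.3 against 19.4 to 24.04 CPM for number 4. TNFSF13B held 1.06, 1.43 and 1.82 CPM against 0.690, 0.828 and 1.203 CPM (edgeR log2 fold change 0.67 ± 0.19 SE, adjusted p = 0.0143). The TNFSF13B libraries overlapped, and with VM libraries only its log2 fold change of 0.51 no longer passed (edgeR adjusted p = 0.111).

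TNFSF4 fell further from its level in senescent controls. The depleted libraries held 1.97, 2.08 and 3.303 CPM at their lowest, median and highest, all below the lowest 4OHT siNT library at 4.18 CPM (edgeR log2 fold change −1.71 ± 0.26 SE, adjusted p = 0.000158). TNFSF10 had 10, 15, 5, 12, 11 and 12 counts in 4OHT siNT and 3, 2, 2, 7, 0 and 6 counts in 4OHT siSMARCA4. Its log2 fold change was −1.83 (SE 0.52, edgeR adjusted p = 0.0154), on group sums of 65 and 20 counts, with no depleted library passing 7 counts, and 2 depleted libraries, 7 and 6 counts, overlapped the lowest control. TNFSF10 passed the filter through 4OHT siNT, the group where it was high, and its fall rests on that group. With 3 against 3 libraries it did not pass within number 2 (−1.92, edgeR adjusted p = 0.0929) or number 4 alone (−1.71, edgeR adjusted p = 0.142), at folds close to that over all libraries. The fall was larger in VM libraries only (−2.64, edgeR adjusted p = 0.00727), with the tag as a covariate (−2.77, edgeR adjusted p = 0.000708) and with a replicate block on the whole label (−2.81, edgeR adjusted p = 0.0351).

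TNFRSF11B, at chr8:118923557-118951885 on the minus strand, held 65.3, 97.1 and 129 CPM in 4OHT siSMARCA4 against 108, 129.8 and 188 CPM in 4OHT siNT at the lowest, median and highest. The groups overlapped (edgeR log2 fold change −0.48 ± 0.14 SE, adjusted p = 0.0223). The call was lost without 4OHT siNT library 4-2VM, its highest control (−0.37, edgeR adjusted p = 0.0624), and without 4OHT siSMARCA4 library 2-3VM (−0.44, edgeR adjusted p = 0.0534).

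For TNFSF15 the result differed between sets of libraries. The depleted libraries tagged VM held 258, 267 and 294 CPM, below all 6 4OHT siNT libraries (315 to 565 CPM, all VM). Those tagged V held 462, 650.3 and 754 CPM, from within the control range to above it. Over all libraries the log2 fold change was 0.06 (SE 0.34, edgeR adjusted p = 0.929). With VM libraries only, TNFSF15 was called lower in 4OHT siSMARCA4 (−0.64, edgeR adjusted p = 0.0250), and with the tag as a covariate the log2 fold change was −0.73 (edgeR adjusted p = 0.0536). The VM libraries were also those with the lower SMARCA4 levels given for TNFSF9 above, and the part of the tag and of the depth of knockdown in these values was not tested.

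TNF and TNFRSF9 again had too few reads to be tested. TNF held 2, 3, 4, 3, 1 and 5 counts in 4OHT siNT and 2, 1, 1, 5, 2 and 4 counts in 4OHT siSMARCA4, a ratio of summed levels of 0.790 with an exact 95% interval of 0.371 to 1.66. TNFRSF9 held 40 counts in 4OHT siNT and 45 in 4OHT siSMARCA4, a ratio of 1.07 (0.681 to 1.68). The intervals cover counting error only and both include 1, so no difference was detectable at this depth.

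**Figure D3:**
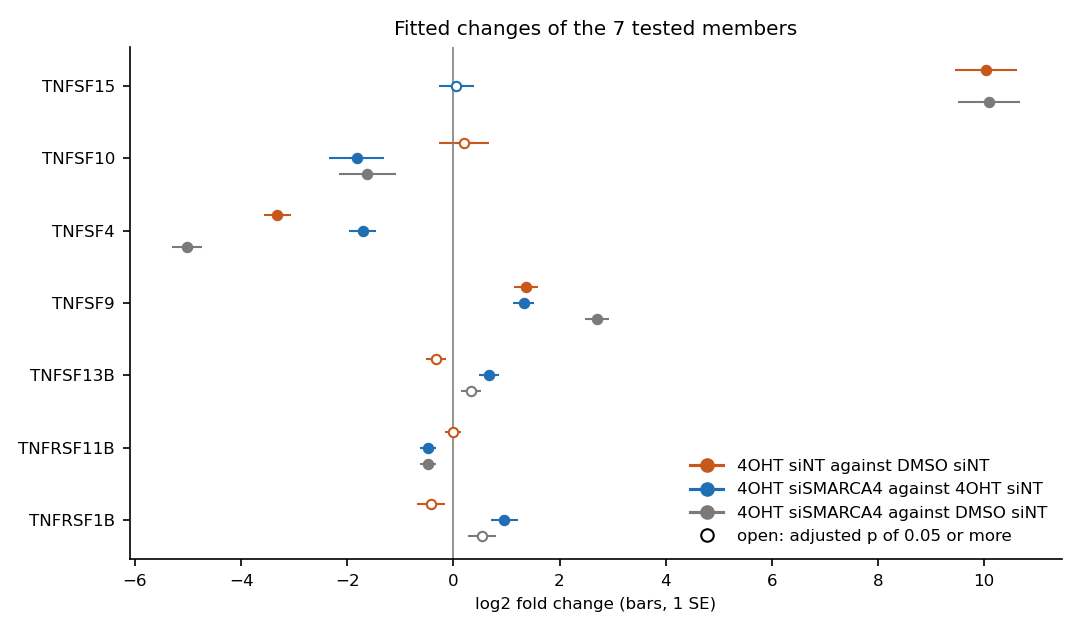
Fitted log2 fold change of the 7 tested members with bars of 1 SE in the 3 comparisons, filled where the edgeR adjusted p was under 0.05. TNFSF15 lies near 10.03 with 4OHT and near 0.06 with siSMARCA4, TNFSF4 is below 0 and TNFSF9 above 0 in every comparison.

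Set against DMSO siNT, the 4OHT siSMARCA4 group gave the combined difference. Here 26.5% of all tested genes were called higher and 28.6% lower, and of the 7 members TNFSF15 (log2 fold change 10.09, and 11.28 without DMSO siNT library 2-1V) and TNFSF9 (2.70) were called higher and TNFSF4 (−5.02), TNFSF10 (−1.62) and TNFRSF11B (−0.49) lower. TNFSF4 was thus 32.5-fold below and TNFSF9 6.50-fold above its level in control cells, without overlap between groups for either or for TNFSF15, 3 of the 7, beside 36.3% of all tested genes. Without DMSO siNT library 2-1V, the highest control of TNFSF10, that gene no longer passed (edgeR adjusted p = 0.0818). In number 4 libraries alone its log2 fold change was −0.64 (edgeR adjusted p = 0.551), and TNFRSF11B at −0.53 no longer passed there (0.1003). TNFRSF1B (0.54, edgeR adjusted p = 0.0927) and TNFSF13B (0.34, edgeR adjusted p = 0.151) did not pass, though TNFSF13B did without DMSO siNT library 4-3VM (0.47, edgeR adjusted p = 0.0475). TNFRSF1B passed in number 4 libraries alone (0.95, edgeR adjusted p = 0.0143) and with a replicate block on the whole label (1.05, edgeR adjusted p = 0.00209). In number 2 libraries alone its log2 fold change was 0.11 and did not pass. TNF had 15 counts over the 6 depleted libraries, 4.05-fold the control floor, with no allowance for the counting error of the 15. TNFRSF9 had 45 counts against 18, a ratio of 2.03 with an exact 95% interval of 1.15 to 3.72 for counting error only. With no filter over all libraries it did not pass (1.11, edgeR adjusted p = 0.204). In VM libraries only it passed the filter, through 4OHT libraries alone since the DMSO siNT ones held 3, 0 and 4 counts, so that its log2 fold change there (2.24, edgeR adjusted p = 0.0249) rests on the groups where it was high.

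The 4OHT libraries of each siRNA number were then compared within the number. The labels do not say whether 2 and 4 beside siNT are different non-targeting siRNAs or only mark the siSMARCA4 siRNA they go with, so a difference between numbers can lie in the controls as well as in the depleted libraries. With number 2, 19.0% of all tested genes were called in either direction, and with number 4 16.1%. TNFSF4, TNFSF9 and TNFRSF1B were called with both numbers. TNFSF4 fell by 2.32 (SE 0.22) on the log2 scale with number 2 and by 0.88 (SE 0.22) with number 4. The difference between the numbers, −1.44 (SE 0.31), was the only one among the 7 members to pass (edgeR adjusted p = 0.0426), beside 1.06% of all tested genes. That call was lost when any of 12 of the 17 libraries was left out, with edgeR adjusted p of up to 0.137, and over all 17 such fits the difference ranged from −1.57 to −1.18. The depleted libraries were close together, 2.05 to 2.11 CPM for number 2 and 1.97 to 3.303 CPM for number 4, whereas their controls were at 8.74 to 12.5 and 4.18 to 5.07 CPM.

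TNFSF9 rose by 1.60 with number 2 and 1.00 with number 4 on the log2 scale, a difference of 0.60 (SE 0.36). TNFRSF1B rose by 1.21 and 0.82, a difference of 0.39 (SE 0.33). TNFSF13B and TNFRSF11B were called with number 4 alone, at log2 fold changes of 0.82 and −0.68 (edgeR adjusted p = 0.0258 and 0.0244), against 0.54 and −0.24 with number 2. The 4OHT siNT libraries of both genes also lay apart by number, at 108 to 123 CPM for number 2 and 137 to 188 for number 4 in TNFRSF11B and 0.843 to 1.203 against 0.690 to 0.812 CPM in TNFSF13B, while the depleted means were 98.4 and 97.7 CPM in TNFRSF11B and 1.47 and 1.35 CPM in TNFSF13B. None of these 4 differences between numbers passed (edgeR adjusted p of 0.454 to 0.725), which does not show that the siRNAs acted alike. Those of TNFSF15 (−0.41, SE 0.60) and TNFSF10 (−0.23, SE 0.99) had wide errors. When the number 4 libraries were fitted without the rest, 3 against 3, TNFSF9, TNFSF13B and TNFRSF11B no longer passed (edgeR adjusted p = 0.0743, 0.0548 and 0.0954), at log2 fold changes of 1.05, 0.85 and −0.65.

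**Figure D4:**
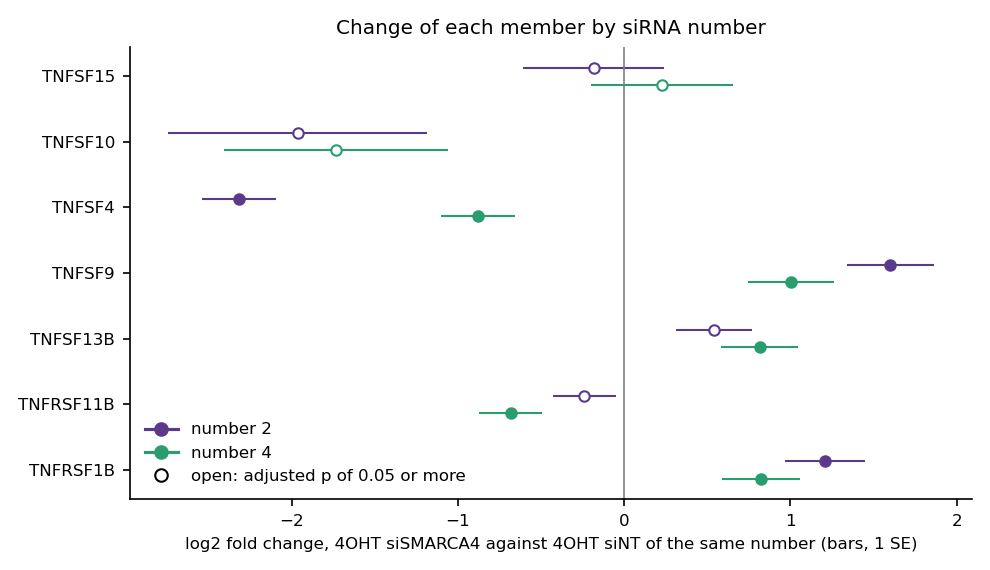
Log2 fold change of each tested member in 4OHT siSMARCA4 against the 4OHT siNT libraries of the same number, with bars of 1 SE and filled points where the edgeR adjusted p was under 0.05. TNFSF4 is at −2.32 for number 2 and −0.88 for number 4, while the bars of TNFSF10, TNFSF15, TNFSF13B and TNFRSF1B overlap between numbers.

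Partners of the members were read from a fixed list of ligand and receptor pairs. TNFRSF25, the signaling receptor of TNFSF15, held 2.39 ± 0.15 CPM per kb in 4OHT siNT and 1.24 ± 0.27 in 4OHT siSMARCA4 (edgeR log2 fold change −0.94 ± 0.17 SE, adjusted p = 0.000690), with no overlap between the groups. TNFRSF6B, a secreted decoy of TNFSF15 and FASLG, rose with 4OHT (0.98, edgeR adjusted p = 0.00111) and not by the test with siSMARCA4 (0.10). Its exons overlap the read-through gene RTEL1-TNFRSF6B on the same strand, so its counts are uncertain.

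The receptors of TNFSF10 were far above their ligand. In 4OHT siNT the death receptor TNFRSF10B was at 75.7 ± 5.9 CPM per kb and TNFRSF10D, a decoy with a truncated death domain, at 222 ± 32, beside 0.065 ± 0.024 for TNFSF10. All 4 surface receptors rose with 4OHT: TNFRSF10D by 1.53, TNFRSF10A by 1.27, TNFRSF10B by 1.17 and TNFRSF10C by 0.86 on the log2 scale (edgeR adjusted p of 0.00241 or less), beside 27.0% of all tested genes called higher. With siSMARCA4 only the decoy TNFRSF10C of these 4 was called, at −1.42 (SE 0.21, edgeR adjusted p = 0.000137), from 6.50 to 2.42 CPM, beside 13.8% of all tested genes called lower, and unnamed genes share its strand and exons.

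TNFRSF1A, the broadly expressed death domain receptor of TNF, was at 35.6 ± 3.6 CPM per kb in DMSO siNT, 38.9 ± 3.7 in 4OHT siNT and 35.8 ± 4.6 in 4OHT siSMARCA4 and passed no test. It exceeded TNFRSF1B in every group, at 5.53, 4.14 and 8.05 CPM per kb. TNFRSF4, the receptor of TNFSF4, did not exceed a mean of 0.0886 CPM per kb in any group. The BAFF receptors were as scarce: TNFRSF13B had 0 counts in all 17 libraries, and TNFRSF13C and TNFRSF17 did not exceed means of 0.0389 and 0.0567 CPM per kb. TNFSF11, the other ligand of TNFRSF11B, had 0 counts in DMSO siNT, 19 over 4OHT siNT and 7 over 4OHT siSMARCA4.

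The remaining superfamily genes were taken from a list of 12 other ligands and 26 other receptors, of which 4 and 17 passed the filter. With 4OHT, 2 of the 4 ligands rose and 2 fell. FASLG, the ligand of the death receptor FAS, rose from 8 counts over the DMSO siNT libraries to 80 over 4OHT siNT (edgeR log2 fold change 3.11 ± 0.68 SE, adjusted p = 0.000691), and TNFSF18, the ligand of TNFRSF18, rose from 1.08 to 5.33 CPM (2.30). TNFSF12, known as TWEAK, and TNFSF13, known as APRIL, fell by 1.43 and 0.99 on the log2 scale. A read-through gene shares the exons of both, so their counts are uncertain. Of the 17 receptors 8 rose and 2 fell, beside 27.0% of all tested genes higher and 27.4% lower, with a median log2 fold change of 0.27. TNFRSF18 fell by 2.29 and CD40, a costimulatory receptor, by 1.21, both from mean levels under 1 CPM, and the CD40 libraries overlapped between the groups. TNFRSF18 did not pass 9 counts in any 4OHT library, so it passed the filter through DMSO siNT, the group where it was high, and its fall rests on that group.

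With siSMARCA4, 2 of the 4 other ligands fell. FASLG went from 6 to 22 counts per library in 4OHT siNT to 0 to 3 counts in 4OHT siSMARCA4, without overlap (edgeR log2 fold change −3.01 ± 0.63 SE, adjusted p = 0.00225), and TNFSF13 fell by 0.84. FASLG did not pass 7 counts in any DMSO siNT or 4OHT siSMARCA4 library, so it passed the filter through 4OHT siNT, the group where it was high, and its rise and its fall both rest on that group. Of the 17 other receptors 5 fell and 1 rose, beside 13.8% of all tested genes lower and 10.4% higher, with a median log2 fold change of −0.05. CD40 rose by 1.19 (SE 0.39, edgeR adjusted p = 0.0327), from a mean of 0.153 to 0.356 CPM, and the libraries of both groups overlapped. CD40 passed the filter through DMSO siNT and 4OHT siSMARCA4, where it was higher. Its fall with 4OHT and this rise rest on those groups. TNFRSF21, a death domain receptor, fell by 0.96 (SE 0.15, edgeR adjusted p = 0.000200), from 80.9 to 41.6 CPM. The other 3 that fell beside TNFRSF10C were TNFRSF25 (−0.94), EDA2R (−0.51) and FAS (−0.49), whose exons overlap those of STAMBPL1 on the same strand. These counts describe the list and were given no test of their own.

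**Figure D5:**
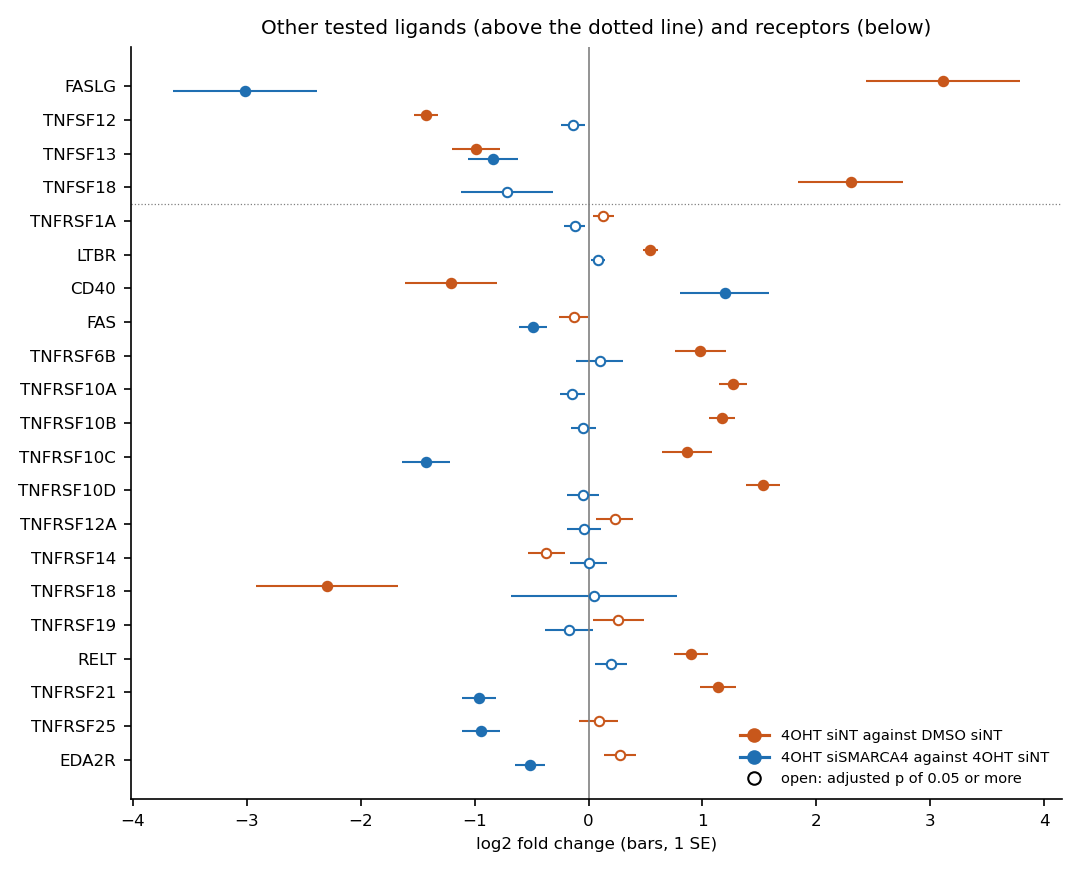
Log2 fold changes with bars of 1 SE for the 4 other ligands and 17 other receptors tested, filled where the edgeR adjusted p was under 0.05. FASLG lies at 3.11 with 4OHT and −3.01 with siSMARCA4, and the TNFSF10 receptors TNFRSF10A, TNFRSF10B and TNFRSF10D rise with 4OHT and lie between −0.14 and −0.04 with siSMARCA4.

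Components of the signaling downstream were described in the same way. The shares of all tested genes to set beside the counts that follow are the 27.0% called higher and 27.4% lower with 4OHT, and the 10.4% higher and 13.8% lower with siSMARCA4. Among 26 of 28 listed receptor signaling genes that could be tested, 9 rose and 3 fell with 4OHT, and 5 rose and 4 fell with siSMARCA4. BIRC3, the ubiquitin ligase cIAP2 that restrains cell death at TNF receptors, rose in both, from 5.07 CPM in DMSO siNT to 17.2 in 4OHT siNT (edgeR log2 fold change 1.76 ± 0.13 SE, adjusted p = 2.00e-09) and to 61.4 in 4OHT siSMARCA4 (1.84, SE 0.12, edgeR adjusted p = 5.50e-08). Its paralog BIRC2 rose with siSMARCA4 (0.66). MLKL, the effector of necroptosis, rose by 1.74 with 4OHT and fell by 0.38 with siSMARCA4. TRAF5, an adaptor, and MAP3K14, the kinase of the noncanonical NF-κB pathway, fell by 1.99 and 1.37 with 4OHT. RBCK1, of the linear ubiquitin complex, fell by 0.46 with siSMARCA4.

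Of 10 NF-κB subunits and inhibitors, 9 rose with 4OHT, beside 27.0% of all tested genes, with a median log2 fold change of 1.05. NFKBIA, an inhibitor that NF-κB itself induces, rose by 1.74 and the subunit RELB by 1.63. With siSMARCA4 5 of the 10 rose, beside 10.4% of all tested genes, at a median of 0.35, the subunits REL (0.64) and RELB (0.52) most. Of 20 genes known to be induced by TNF, 16 rose and 2 fell with 4OHT, at a median of 2.36, and 9 rose with siSMARCA4, at a median of 0.62. CCL20, a chemokine, rose by 10.47 with 4OHT, from a mean of 0.0103 to 18.7 CPM, and CXCL1 by 8.92, from 0.418 to 205 CPM. At that control level CCL20 passed the filter through the 4OHT libraries, where it was high, and its fold rests on them. VCAM1, an adhesion molecule, fell by 2.90 with 4OHT and TNFAIP8 by 2.22. TNIP3, an inhibitor of NF-κB signaling, rose by 1.92 and the chemokine CXCL2 by 1.47 with siSMARCA4. Which inducer these genes answered to was not tested.

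Shedding enzymes cut several of these ligands and receptors from the cell surface. Of 6 genes listed, 3 rose and 1 fell with 4OHT, and 2 fell with siSMARCA4, beside the same shares of all genes (27.0% and 27.4%, and 13.8%). RHBDF1 and RHBDF2, which escort the sheddase ADAM17, rose by 1.68 and 1.46 with 4OHT, and ADAM10 fell by 0.41. RHBDF1 fell by 0.56 and FURIN, a protease that processes TNFSF13B, by 0.35 with siSMARCA4. ADAM17, the enzyme that sheds TNF, passed neither test (log2 fold changes 0.15 and 0.21).

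The genes whose pair of log2 fold changes, 4OHT and siSMARCA4, lay nearest to that of each member were named over 3 group means of 17 libraries. IL1B, an inflammatory cytokine, was nearest to TNFSF15 (10.14 and 0.17, a distance of 0.16) among 13739 genes. Nearest to TNFSF9 was IL18R1, a receptor chain for interleukin-18 (1.34 and 1.28), and nearest to TNFSF4 was ENPP2, which makes lysophosphatidic acid (−3.29 and −1.69). C1orf226 was nearest to TNFSF10, BATF2 to TNFSF13B, FBXO21 to TNFRSF11B and GALNT9 to TNFRSF1B. With so many genes some lie near any pair of values, and the closeness is a description.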

How the data were processed

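Poly(A) RNA of 17 IMR90 ER:RAS libraries was prepared with a strand-specific kit and read as paired ends. Per the labels and methods, the authors trimmed reads with Cutadapt 4.7, aligned them with HISAT2 2.2.1 to GRCh38, keeping up to 100 alignments per pair, and deposited expected counts per gene and repeat locus from TElocal, which shares multi-mapping reads out and gives whole numbers here. Gene IDs matched GENCODE 44 (62700 of 62754 paired with a symbol), while the methods name Ensembl release 100. Repeat loci were summed to subfamilies and kept in the library sizes. Groups came from the labels.

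Counts were scaled by TMM and tested with edgeR 4.0.16 (glmQLFit, filterByExpr at a minimum count of 10, Benjamini-Hochberg) in 1 model of 3 groups, and by siRNA number in a model of 6. The fit was also run on simulated counts with the same spread for all genes and few genes changed. That setting differs from these data, so it does not show how well the fit holds here. CPM are counts per 1e+06 of the library total after TMM scaling, per kb of GENCODE 44 exon where levels were compared between genes. Levels and ratios from counts summed over a group used library totals without TMM scaling. Intervals are exact and cover counting error only. The edgeR test gives no standard error. Each SE was taken as the absolute log2 fold change over the square root of the test's F value, so it is approximate. Alternatives were DESeq2 1.42.0, other scalings, no filter, parts of the libraries, the tag as a covariate, replicate blocks and each library left out. Named genes were all 9 members, their partners, for each list and comparison the 2 largest rises and falls among calls, and the 3 genes of nearest pattern. The members and lists were chosen with earlier results of these data known. No promoter of TNFRSF11B was used here.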

Additional observations from a re-analysis of the deposited data

Results flagged for a closer look

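Among 26 groups of member values tested for a library far from the others, 3 stood out by the ratio of a library's gap to the whole range of its group, and chance alone gives about 1 group in 20. TNFSF15 in DMSO siNT library 2-1V held 1.31 CPM against 0.368 CPM in the nearest of the other 4 controls, a gap of 0.748 of the range. TNFSF4 in DMSO siNT library 2-2VM held 107 CPM against 69.5 CPM, a gap of 0.835 of the range. TNFSF4 in 4OHT siSMARCA4 library 4-3V held 3.303 CPM against 2.18 CPM, a gap of 0.843 of the range. Without each of these libraries TNFSF15 was still called in both comparisons with DMSO siNT, and TNFSF4 in all 3 group comparisons. The effect of siSMARCA4 on TNFSF4 differed between siRNA numbers, number 2 minus number 4, by −1.44 on the log2 scale in the test of the difference itself (SE 0.31, edgeR adjusted p = 0.0426), and without 4OHT siSMARCA4 library 4-3V that difference was −1.18 and did not pass (0.114). What the number stands for beside siNT is not given by the labels, and the siNT libraries of both numbers differed (8.74 to 12.5 against 4.18 to 5.07 CPM).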

How the results depend on the processing

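Each result was recomputed under 28 alternatives, or 19 for the difference between siRNA numbers. The siSMARCA4 comparison called 4703 genes and 3717 to 5352 with each library left out, 1198 with number 4 libraries alone and 3045 with a replicate block on the whole label. The comparison of 4OHT siSMARCA4 with DMSO siNT called 10725 genes, 10037 to 11050 with each library left out and 6329 with that replicate block. With 4OHT against DMSO in siNT, 10601 genes were called, and 9978 to 10917 with each library left out. The difference between siRNA numbers called 207 genes, 791 with no filter on low counts and 17 to 845 with each library left out, the lowest without 4OHT siSMARCA4 library 2-3VM and the highest without 4-2VM. The causes were not tested.

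Directions turned for members that had no call over all libraries. For TNFSF15 with siSMARCA4 the log2 fold change of 0.06 became −0.14 in number 2 libraries, −0.64 in VM libraries, −0.73 with the tag as a covariate, −0.72 with the replicate block on the whole label, and −0.15 to 0.17 with each library left out. With 4OHT, TNFSF10 became −0.43 in number 2 libraries, 1.07 in number 4 libraries, 1.00 in VM libraries (edgeR adjusted p = 0.114) and 0.98 with the tag as a covariate (0.0687), and ranged from −0.011 to 0.69 with each library left out, TNFSF13B became 0.056 in number 2 libraries, and TNFRSF1B became 0.081 in number 4 libraries. TNFRSF11B with 4OHT became 0.12 in number 4 libraries, 0.0022 in VM libraries, 0.11 with the tag as a covariate, 0.054 and 0.0060 with replicate blocks on the whole label and on the number alone, and −0.12 to 0.032 with each library left out. In 4OHT siSMARCA4 against DMSO siNT, TNFSF13B became −0.031 in number 4 libraries and −0.079 with the replicate block on the whole label. The difference between numbers in TNFSF10 ranged from −0.74 to 0.19 with each library left out.

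Over 7 pairs of libraries sharing a whole label (siRNA number, replicate number and tag) the correlation of deviations from the group means ran from −0.37 to 0.33, positive for some pairs and negative for others, so the labels were not taken to pair the libraries. With the replicate block on the whole label the siSMARCA4 calls of TNFSF13B (0.44, edgeR adjusted p = 0.281) and TNFRSF11B (−0.72, 0.0596) were lost. Against DMSO siNT that block lost TNFSF10 (−2.27, 0.0914) and TNFRSF11B (−0.67, 0.102) and gained TNFRSF1B (1.05, 0.00209). Apart from TNFSF13B, these lost calls had folds larger than over all libraries without the block. Number 4 libraries alone lost the same calls there (0.551 and 0.1003) and gained TNFRSF1B (0.0143), and VM libraries alone lost TNFSF10 (−1.64, 0.0809). DESeq2, the other scalings and no filter on low counts changed no call or direction of the 7 members. Depth limited TNF, TNFRSF9 and TNFSF10, whose libraries held at most 24 counts each.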
